A study of Mus musculus with 12 samples.

Results

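Integrins are the cell's receptors for the extracellular matrix, and laminins are the large cross-shaped glycoproteins that make up much of the basement membrane to which epithelium, muscle and vessels adhere. The genes described here are the integrin alpha and beta subunits and the laminin alpha, beta and gamma chains, chosen by their gene symbols alone. The rule found 37 genes among the 55679 genes of the table, of which 18 encode integrin alpha subunits, 8 integrin beta subunits, 5 laminin alpha chains, 3 laminin beta chains and 3 laminin gamma chains. The authors marked 34 of the 37 as detected, and Itga10, Itga11 and Lama1 were the others. RNA was measured in the whole lung and the whole heart of 6 adult male mice of the 129S6/SvEvTac strain, 3 wildtype for Adam19 (WT) and 3 homozygous for the knockout allele (KO), which gave 12 libraries in 4 groups of 3. The lung and the heart of a mouse carry the same replicate number. In KO mice exons 6 and 7 of Adam19, which encodes a membrane-anchored metalloprotease with a disintegrin domain, were replaced in every cell by a construct carrying tdTomato. The identifiers of WT and KO mice have no prefix in common, so that a difference between families or cages and a difference between genotypes cannot be told apart.

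An integrin is a pair of an alpha and a beta subunit, and the pair sets the ligand. The beta 1 subunit joins most alpha subunits, among them the laminin receptors with alpha 3, alpha 6 and alpha 7, the collagen receptors with alpha 1, alpha 2, alpha 10 and alpha 11, and receptors with alpha 5 and alpha 8 that read the Arg-Gly-Asp sequence of fibronectin, nephronectin and related proteins. The beta 2 and beta 7 subunits belong to leukocytes, beta 4 anchors epithelium to laminin, and beta 6 and beta 8 pair with the alpha v subunit. A laminin is a trimer of an alpha, a beta and a gamma chain. The alpha 2 chain is typical of the basement membrane around muscle fibres, the alpha 4 chain of vessels, the alpha 5 chain of most adult epithelia and vessels, and the alpha 3 and beta 3 chains of laminins that anchor epithelium.

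All values are the deposited gene values, which are on a log2 scale, so that a difference of 1 on it stands for a factor of 2. Summed estimated counts per library ranged from 17674788 to 35862932. Adam19 stood between 9.12 and 10.27 in the 6 WT libraries, between 3.21 and 4.44 in the KO lungs and between 6.01 and 6.67 in the KO hearts. The tissue labels were checked against defining markers. Lung epithelial markers summed to between 18.60 and 18.99 in lungs and between 12.55 and 13.22 in hearts, and heart muscle markers summed to between 20.65 and 20.94 in hearts and between 13.07 and 14.55 in lungs. The transcript of the signal recognition particle RNA, Rn7s1, took between 2.1% and 34.0% of the summed abundance in lungs and between 2.7% and 11.8% in hearts, and lung WT replicates 1 and 2 were the highest. In whole tissue, fewer cells of a type and less RNA per cell cannot be told apart. The p-values for gene values set a difference against the spread between mice of a group. Those for transcript shares rest on the lung minus heart differences of the 6 mice.

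The first question was which integrin and laminin genes distinguish the lung from the heart. A gene was called where the Benjamini-Hochberg adjusted p over all genes tested (limma) was under 0.05, the fold change at least 1.5 and the highest group mean at least 6. Of the 37 genes, 29 (78.4%) were called, 21 higher in the lung and 8 lower. Over all 17666 genes tested the called share was 51.3%, with 30.1% higher and 21.2% lower in the lung. The median difference of the 37 genes was 1.29, and that of all genes tested was 0.31. The values of the 6 lung libraries and the 6 heart libraries did not overlap for 25 of the 37 genes (67.6%), against 57.4% of all genes. Of the 26 integrin genes, 17 were called higher in the lung and 4 lower, and 5 were not called. The 11 laminin genes split into 4 higher and 4 lower, and 3 were not called. Genotype entered this comparison equally in both tissues, and 28 genes were called within WT mice and 27 within KO mice. Aligning the library medians moved the median of all genes by −0.22 and gave 30 called genes, 20 higher in the lung and 10 lower, with Itgb1 and Itgb5 gained and Itgav lost.

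**Figure D1:**
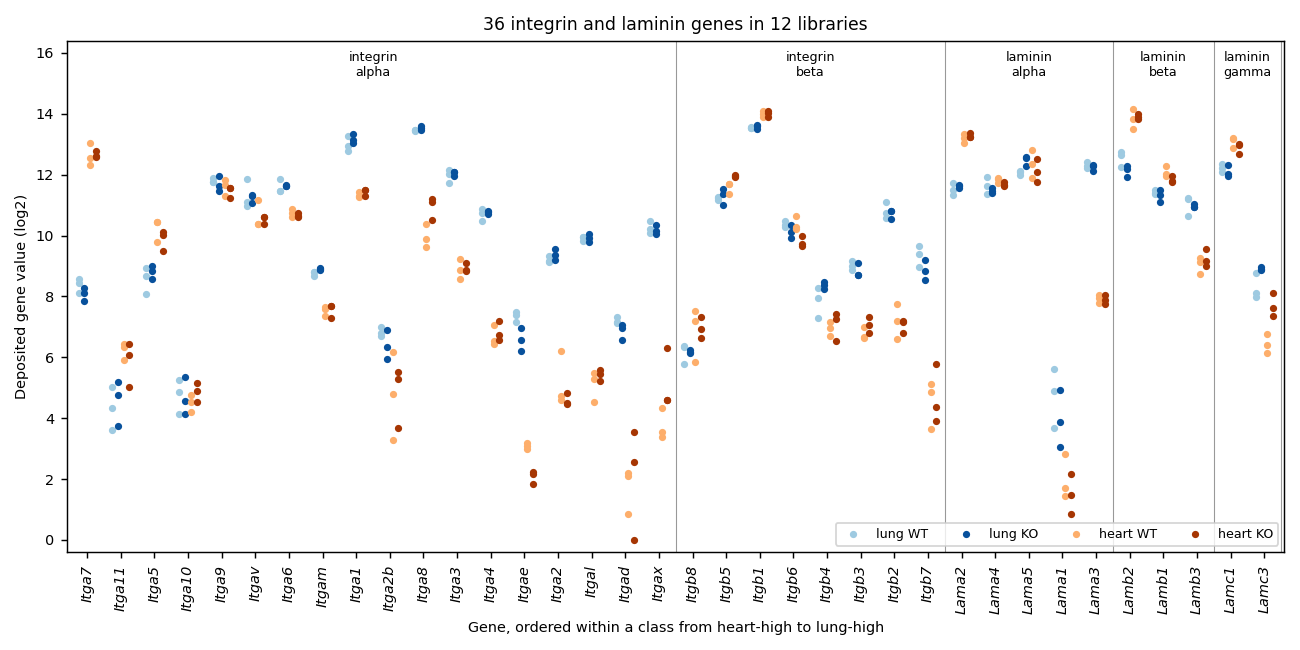
Deposited gene values (log2, vertical axis) of 36 of the 37 genes in each of the 12 libraries, 1 point a library, coloured by tissue and genotype and ordered within each class by the difference between tissues. Lung and heart points separate widely at both ends of the alpha subunits, from Itga7 on the heart side to Itgax on the lung side, while WT and KO points of a tissue mostly lie together.

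Among alpha subunits, Itga7 (chromosome 10, 128769621 to 128794169, on the forward strand of GRCm39), the laminin-binding alpha subunit of striated muscle, had the largest difference on the heart side. Its values were 8.45, 8.12 and 8.58 in WT and 8.10, 8.29 and 7.84 in KO in the lung, and 12.55, 12.31 and 13.05 in WT and 12.60, 12.78 and 12.58 in KO in the heart. All 6 hearts were far above all 6 lungs, and the difference, lung minus heart, was −4.42 (SE 0.14, adjusted p = 1.73e-11), a level 21.4 times higher in the heart. Lung values of Itga7 were highest in WT replicate 3, at 8.58, and lowest in KO replicate 3, at 7.84. The summed heart muscle markers were likewise highest in lung WT replicate 3, at 14.55, and stood at 13.22 in lung KO replicate 3, below all but 1 of the others. That other, lung KO replicate 2, had the lowest markers, 13.07, but Itga7 at 8.29. Its Itga7 value was above those of WT replicate 2 and KO replicate 1, whose markers both stood at 13.69. The part of heart muscle RNA in the lung values of Itga7 was not tested.

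Itga8 (chromosome 2, 12110900 to 12307214, on the reverse strand) encodes the alpha subunit of the nephronectin receptor, which in adult tissue is typical of fibroblasts and smooth muscle. It showed the opposite pattern to Itga7. The lung values were 13.42, 13.46 and 13.46 in WT and 13.59, 13.48 and 13.55 in KO, a spread of less than 0.2 over 6 libraries. The heart values were 9.88, 10.38 and 9.61 in WT and 11.18, 10.52 and 11.12 in KO, and the difference between tissues was 3.04 (SE 0.14, adjusted p = 6.59e-10). Expressed per kilobase of transcript, Itga8 made up 26.1% ± 1.01 (SD, n = 6) of all alpha subunit RNA in the lung, the highest share there, and 5.96% ± 2.62 (SD, n = 6) in the heart, where it ranked 7. Itga7 made up 1.16% ± 0.204 in the lung and 42.7% ± 4.3 in the heart, the highest share there. The ratio of Itga8 to Itga7 per kilobase lay between 17.6 and 31.4 in lungs and between 0.054 and 0.22 in hearts.

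The remaining laminin receptor subunits differed less. Itga3, the partner of beta 1 in many epithelia, was higher in the lung by 3.10 (SE 0.12, adjusted p = 1.15e-10), with values between 11.71 and 12.15 in lungs and between 8.56 and 9.22 in hearts. Itga6, which joins beta 1 or beta 4, was higher in the lung by 0.92 (SE 0.09, adjusted p = 8.86e-07) and held nearly the same share of alpha subunit RNA per kilobase in both tissues, 13.3% ± 1.04 in the lung and 12.5% ± 0.652 in the heart (SD, n = 6 each). Itgb4, the epithelial partner of alpha 6, differed by 1.09 (SE 0.20, adjusted p = 2.21e-04), and its lung and heart values overlapped.

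Of the 4 collagen receptor subunits, 2 were higher and 1 lower in the lung. Itga2 (chromosome 13, 114969617 to 115068636, on the reverse strand), the subunit of epithelium and platelets, had lung values of 9.12, 9.31 and 9.15 in WT and 9.37, 9.20 and 9.57 in KO. Its heart values were 4.61, 4.72 and 6.21 in WT and 4.51, 4.83 and 4.48 in KO, and heart WT replicate 3 stood above the other 5 hearts. The difference was 4.39 (SE 0.24, adjusted p = 3.30e-09). Itga1, found on smooth muscle, vessels and fibroblasts, was higher in the lung by 1.70 (SE 0.10, adjusted p = 8.49e-09), without overlap. Its locus overlaps Mocs2 on the opposite strand over 2183 nucleotides of exon sequence, and with the values of both genes summed the difference was 1.57 in place of 1.70. Itga11, a fibroblast collagen receptor, was low in both tissues, lower in the lung, at −1.58 (SE 0.34, adjusted p = 9.25e-04), and the libraries overlapped. Within KO mice alone Itga11 was not called. Itga10 stood between 4.13 and 5.37 in every library and was not called (0.03, adjusted p = 0.918), and it shares 719 nucleotides with Gm42957 on the same strand.

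Subunits that read the Arg-Gly-Asp sequence went in both directions. Itga5 (chromosome 15, 103252713 to 103275270, on the reverse strand), the alpha subunit of the fibronectin receptor, had values of 8.66, 8.92 and 8.09 in WT and 8.82, 8.56 and 9.0 in KO in the lung. The heart values, 9.78, 10.46 and 10.44 in WT and 10.02, 10.12 and 9.50 in KO, were all higher, and the difference was −1.38 (SE 0.18, adjusted p = 1.23e-05). Itgav was higher in the lung by 0.68 (SE 0.17, adjusted p = 0.00295) and higher in 5 of 6 mice. It was not called with the library medians aligned, with transcripts summed, or without lung WT replicate 3. Of its beta partners, Itgb3 was higher in the lung by 2.01 (SE 0.13, adjusted p = 2.08e-08), and Itgb5 (−0.51) and Itgb6 (0.15) were not called. Itgb8 was lower, at −0.73 (SE 0.27, adjusted p = 0.023), with overlapping libraries. It lost the call without lung WT replicate 1, heart WT replicate 1, heart WT replicate 2 or heart KO replicate 1, and was called neither within WT mice nor within KO mice. Itga2b, the platelet partner of beta 3, was higher in the lung by 1.83 (SE 0.45, adjusted p = 0.00245) with overlap, and platelet markers went both ways. Of 4 tested, Ppbp, Gp6 and Gp9 differed by 4.12, 3.56 and 2.46 but were below the group mean of 6, and Pf4 was called lower in the lung, at −1.29. Their summed level stood between 7.03 and 7.81 in lungs and between 6.93 and 8.03 in hearts, and their part in the Itga2b difference was not tested. Itga9, a receptor subunit for tenascin and other ligands, lay between 11.23 and 11.96 in every library (0.22, 95% interval −0.04 to 0.48) and was not called.

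The 8 subunit genes of leukocyte integrins (Itga4, Itgad, Itgae, Itgal, Itgam, Itgax, Itgb2 and Itgb7) were all called higher in the lung, with a median difference of 4.44. Itgax (chromosome 7, 127728668 to 127749829, on the forward strand), known as CD11c of dendritic cells and alveolar macrophages, had lung values of 10.20, 10.09 and 10.47 in WT and 10.14, 10.06 and 10.35 in KO. The heart values were 3.40, 4.33 and 3.53 in WT and 4.61, 6.30 and 4.60 in KO, with heart KO replicate 2 the highest, and the difference was 5.76 (SE 0.28, adjusted p = 9.95e-10), the largest of the 37 genes. Itgad, a beta 2 partner of macrophages, had lung values of 7.33, 7.15 and 7.13 in WT and 6.98, 7.07 and 6.58 in KO. Its heart values were 0.86, 2.19 and 2.11 in WT and 0, 2.57 and 3.54 in KO, all near the floor of detection and listed at 0 in 1 library, and the difference was 5.16 (SE 0.50, adjusted p = 7.29e-07).

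Itgal, the alpha subunit of the lymphocyte receptor for ICAM1, had lung values of 9.96, 9.96 and 9.83 in WT and 10.06, 9.79 and 9.91 in KO. In the heart they were 5.27, 4.54 and 5.47 in WT and 5.58, 5.46 and 5.22 in KO, and the difference was 4.66 (SE 0.16, adjusted p = 4.13e-11). Itgb7, the partner of alpha 4 and alpha E on lymphocytes, had lung values of 9.66, 9.39 and 8.98 in WT and 9.20, 8.85 and 8.55 in KO against heart values of 4.85, 3.65 and 5.12 in WT and 5.79, 3.90 and 4.36 in KO, a difference of 4.49 (SE 0.33, adjusted p = 5.37e-08). The other 4 differed by 4.38 (Itgae), 3.97 (Itga4), 3.65 (Itgb2) and 1.29 (Itgam). Leukocyte markers moved the same way. Of 9 tested, 8 were called higher in the lung, with a median difference of 4.51, and their summed level was between 13.11 and 13.54 in lungs and between 10.70 and 11.06 in hearts. Ly6g, a neutrophil marker, was at 0 in all 6 hearts and at most 1.92 in lungs. The part of leukocyte numbers in these 8 differences was not tested. Itga4 overlaps Cerkl on the opposite strand over 3484 nucleotides, and Itgam shares 3453 nucleotides with Gm49368 on the same strand. With the pairs summed the differences were 3.81 and 1.30.

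Itgb1 (chromosome 8, 129411876 to 129460618, on the forward strand), the common partner of many alpha subunits, was the beta subunit gene with the highest level per kilobase in both tissues. Its values were 13.56, 13.53 and 13.53 in WT and 13.60, 13.49 and 13.62 in KO in the lung and 13.90, 14.08 and 13.98 in WT and 13.91, 14.08 and 14.02 in KO in the heart. The tissues did not overlap, and the difference of −0.44 (SE 0.09, adjusted p = 5.34e-04) passed the test but fell below a fold of 1.5. It would be called with the library medians aligned (−0.66) or with limma-voom (−0.65), and it was 0.03 and did not pass the test where transcripts were summed. Per kilobase, Itgb1 held 60.4% ± 3.95 of beta subunit RNA in the lung and 71.5% ± 2.56 in the heart (SD, n = 6 each). Itgb5 ranked second in both, with 16% ± 2.03 and 22.1% ± 3.05. The leukocyte subunit Itgb2 held 11.5% ± 1.69 and 0.862% ± 0.19, and Itgb6 came before it in the heart, with 4.24% ± 1.21. The Itgb1 level per kilobase includes Itgb1-204, an annotated fragment of 711 nucleotides described below. This fragment made up 33.9% of Itgb1 per length in hearts and 1.68% in lungs, but 6.80% and 0.308% of the estimated counts. Its part in the higher heart share of Itgb1 was not tested.

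**Figure D2:**
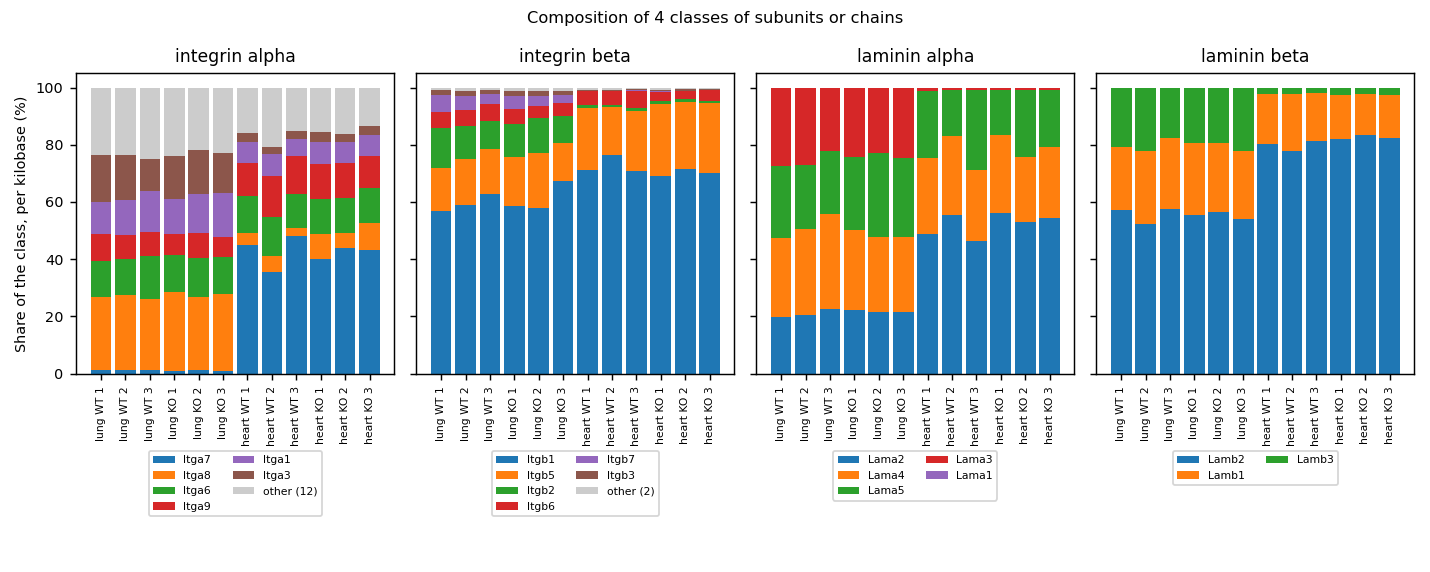
Share of each gene (%, vertical axis) in the summed level of its class for integrin alpha and beta subunits and laminin alpha and beta chains, per kilobase of transcript, in each of the 12 libraries (bars, horizontal axis), with up to 6 genes of a class coloured and the rest in grey. Itga7 replaces Itga8 as the leading alpha subunit from lung to heart, and Lama2 and Lamb2 take larger shares of their classes in hearts.

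Laminin alpha chains differed in composition between the tissues. Lama2 (chromosome 10, 26856032 to 27495754, on the reverse strand), the muscle chain, had lung values of 11.33, 11.51 and 11.74 in WT and 11.64, 11.55 and 11.65 in KO. Its heart values were 13.03, 13.34 and 13.19 in WT and 13.25, 13.36 and 13.24 in KO, all higher, and the difference was −1.66 (SE 0.09, adjusted p = 4.19e-09). Lama3, the epithelial chain, was higher in the lung by 4.36 (SE 0.09, adjusted p = 7.37e-13), from between 7.76 and 8.05 in hearts to between 12.14 and 12.40 in lungs. Lama5 (chromosome 2, 179818166 to 179867712, on the reverse strand) had lung values of 12.13, 11.97 and 12.10 in WT and 12.29, 12.53 and 12.59 in KO and heart values of 12.35, 11.91 and 12.83 in WT and 11.74, 12.50 and 12.08 in KO. These overlapped, and the difference was 0.03 (SE 0.16, adjusted p = 0.854), with a 95% interval of −0.31 to 0.38. Lama4, the chain of vessels, had lung values of 11.37, 11.61 and 11.92 in WT and 11.55, 11.40 and 11.45 in KO and heart values of 11.73, 11.89 and 11.87 in WT and 11.76, 11.67 and 11.62 in KO, and was not called either (−0.20, adjusted p = 0.0739). Lama1, the embryonic chain, was at most 5.63 in any library and did not reach the group mean of 6.

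Per kilobase, the lung had 4 alpha chains at comparable levels, with Lama4 at 28.4% ± 2.83, Lama5 at 25.5% ± 3.05, Lama3 at 24.6% ± 2.13 and Lama2 at 21.4% ± 1.05 of the class (SD, n = 6). In the heart Lama2 alone held 52.3% ± 3.98, Lama4 25.6% ± 1.86, Lama5 21.1% ± 4.78 and Lama3 0.942% ± 0.102. The ratio of Lama2 to Lama5 per kilobase was between 0.73 and 1.03 in lungs and between 1.65 and 3.59 in hearts.

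The beta and gamma chains followed the same division. Lamb2 (chromosome 9, 108356935 to 108367729, on the forward strand), the beta chain of adult muscle and vessels, had lung values of 12.63, 12.27 and 12.73 in WT and 12.27, 12.18 and 11.91 in KO, and heart values of 13.84, 13.49 and 14.16 in WT and 13.99, 13.90 and 13.84 in KO, a difference of −1.54 (SE 0.13, adjusted p = 2.03e-07). Lamc1 (chromosome 1, 153094597 to 153208774, on the reverse strand), the gamma chain of most laminins, had lung values of 12.21, 12.35 and 12.09 in WT and 12.31, 12.03 and 11.97 in KO and heart values of 12.89, 13.22 and 13.18 in WT and 12.96, 12.997 and 12.68 in KO, a difference of −0.83 (SE 0.11, adjusted p = 1.06e-05). Lamb1 was lower in the lung, at −0.60 (SE 0.10, adjusted p = 8.93e-05), just past the fold threshold. It lost the call without lung WT replicate 1, lung KO replicate 3, heart WT replicate 3 or heart KO replicate 1, and within KO mice alone. Lamb3, a beta chain of epithelium, was higher in the lung by 1.86 (SE 0.14, adjusted p = 5.51e-08). Of 9 lung epithelial markers tested, 8 were called higher in the lung, with a median difference of 9.17. The part of epithelial cell numbers in the differences of Lama3 and Lamb3 was not tested. Lamc3, a gamma chain of low abundance, was higher in the lung by 1.53 (SE 0.18, adjusted p = 4.01e-06), with overlap.

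Per kilobase, Lamb2 was the leading beta chain in both tissues, with 55.5% ± 2 in the lung and 81.3% ± 1.95 in the heart (SD, n = 6 each), and Lamb3 held 20.3% ± 1.78 and 2.33% ± 0.319. The Lamb2 difference was −1.97 with transcripts summed, and the deposited gene value and the summed transcripts of Lamb2 differed by up to 1.28 in a library.

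The second tissue contrast was in transcript forms. Several integrin subunits exchange their cytoplasmic tails or their ligand-binding region by alternative splicing, and the transcript table allowed these forms to be compared within each gene. The share of a transcript is its estimated count per length as a percent of the gene. Lung and heart of the 6 mice were compared with an exact two-sided sign-flip permutation test, in which the smallest p that 6 mice allow is 0.03125. Of 26 transcripts of 16 genes tested, 8 reached that p and none passed 0.05 after adjustment (smallest adjusted p = 0.102). Counts for a transcript are estimates that divide reads between forms.

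The tail exons of Itgb1 are printed here because they carry the difference between the common form and the striated muscle form. Transcript Itgb1-204 is an annotated fragment of 711 nucleotides whose start is not defined and which holds the exon of the muscle form, beta 1D (chr8:129453464-129453538, forward strand of GRCm39, coding part of the exon with its stop codon). Transcript Itgb1-201 is the full-length common form, beta 1A, with its own last coding exon (chr8:129458504-129458569, forward strand). Capitals mark the codons of the NPXY motifs, to which talin and kindlin bind. Each exon holds 2 such motifs.
Itgb1-204, beta 1D exon: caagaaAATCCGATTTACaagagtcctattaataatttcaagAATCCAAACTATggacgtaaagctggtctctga
Itgb1-201, last coding exon: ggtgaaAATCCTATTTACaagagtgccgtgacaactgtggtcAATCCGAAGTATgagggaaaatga

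The share of Itgb1-204 was 0.782, 1.32 and 6.01 in WT and 0.666, 0.664 and 0.617 in KO (%) in the lung, and 33.8, 36.4 and 34.8 in WT and 32.2, 31.1 and 35.1 in KO (%) in the heart. Every heart was above 31% and every lung at or below 6.01%, the mean being 1.68% ± 2.14 in lungs and 33.9% ± 1.98 in hearts (SD, n = 6). It was lower in the lung in 6 of 6 mice (exact sign-flip permutation p = 0.03125, adjusted p = 0.102). Because the fragment is short, its share of the estimated counts without division by length was smaller, 0.308% in lungs and 6.80% in hearts, and neither scale gives the share of full-length beta 1D messages. Lung WT replicate 3 had the highest lung share, 6.01%, and also the highest summed heart muscle markers of the 6 lungs, 14.55. The order of the other lungs did not match throughout. Lung WT replicate 1 came next for the markers, at 13.81, but its share was 0.782%. Lung WT replicate 2 had lower markers, 13.69, but a higher share, 1.32%. The estimated count of Itgb1-204 was 178.5 in lung WT replicate 3 and between 13.2 and 24 in the other lungs. Lung WT replicate 3 also stood apart from the other lungs for transcripts of Lamb2, Lamc1, Lama4 and Lama2, given below. The part of heart muscle RNA in the lung shares of Itgb1-204 was not tested. WT and KO hearts had mean shares of 35.0% and 32.8%, and their ranges overlapped.

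A further form of Itgb1 split the lungs. Itgb1-202, annotated as subject to nonsense-mediated decay, took 0.236, 0.552 and 61.3 in WT and 0.081, 0 and 60.8 in KO (%) in the lung and at most 0.366% in the heart. Lung WT replicate 3 and lung KO replicate 3 were near 61%, and the other 4 lungs were below 1%. These 2 libraries are of both genotypes, and their deposited gene values of Itgb1, 13.53 and 13.62, stood among 6 lungs that ranged from 13.49 to 13.62. The share of the full-length Itgb1-201 in lungs, 77.8% ± 32.8 (SD, n = 6), spanned 32.6% to 99.3%. Estimated counts divide reads between overlapping transcripts, and whether these shares reflect that division or the transcripts present was not tested.

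Itga6 exchanges its tail in the same manner. The A form includes an exon with its own stop codon (chr2:71683878-71683985, forward strand), and the B form skips it and ends in the last coding exon (chr2:71686198-71686359, forward strand). Capitals mark the codons of the GFFKR motif next to the membrane, common to alpha subunits, after which the tails diverge.
Itga6-201, alpha 6A exon: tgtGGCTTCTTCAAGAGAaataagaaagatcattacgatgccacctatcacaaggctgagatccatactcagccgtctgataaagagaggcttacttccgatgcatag
Itga6-209, last coding exon: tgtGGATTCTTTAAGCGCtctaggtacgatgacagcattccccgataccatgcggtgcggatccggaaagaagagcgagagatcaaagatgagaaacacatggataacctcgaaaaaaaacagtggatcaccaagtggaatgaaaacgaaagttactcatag

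Transcripts with the A exon made up 49.3, 40.2 and 32.2 in WT and 46.6, 34.3 and 47.1 in KO (%) of those that hold or skip it in the lung, and 51, 49.8 and 41.6 in WT and 56.3, 48.3 and 52 in KO (%) in the heart. The means were 41.6% ± 7.17 and 49.8% ± 4.84 (SD, n = 6), the share was lower in the lung in 6 of 6 mice (exact sign-flip permutation p = 0.03125, adjusted p = 0.0781 over 5 exons), and the ranges of the tissues overlapped. Without division by length the means were 50.9% in lungs and 59.9% in hearts. Transcripts counted as skipping the exon include Itga6-203, which has 3 exons and no defined coding region. Itga6-203 held 40.8% of Itga6 per length in lungs and 35.3% in hearts, so that the remainder is not the share of the B form. The measure for Itga6 and those for Itgb1, Itga7 and Itga3 by exon were chosen after the data were seen. None of the 5 exons had an adjusted p under 0.05.

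Itga7 has a pair of exclusive exons in the extracellular region that meets laminin, known as X1 and X2. They are shown because the transcripts that the table separates best for this gene differ by them. In transcript order they are the exon of Itga7-202 (chr10:128777314-128777445, forward strand) and the exon of Itga7-201 (chr10:128777691-128777810, forward strand), and Itga7-206 holds both. No capitals are used.
Itga7-202, first exclusive exon: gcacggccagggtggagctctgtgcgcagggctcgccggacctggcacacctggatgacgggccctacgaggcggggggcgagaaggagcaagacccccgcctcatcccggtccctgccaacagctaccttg
Itga7-201, second exclusive exon: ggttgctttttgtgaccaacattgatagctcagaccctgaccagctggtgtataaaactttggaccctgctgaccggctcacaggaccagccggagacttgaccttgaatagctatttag

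The share of Itga7-201 was 74.2, 69.5 and 77.8 in WT and 70.4, 63.7 and 81.9 in KO (%) in the lung and 85.3, 88.7 and 83.3 in WT and 82.3, 84.4 and 84.5 in KO (%) in the heart, with means of 72.9% ± 6.48 and 84.7% ± 2.20 (SD, n = 6), and was lower in the lung in 6 of 6 mice (exact sign-flip permutation p = 0.03125, adjusted p = 0.102). Without division by length it was higher in the lung in 2 of 6 mice (exact sign-flip permutation p = 0.125, adjusted p = 0.202), so that the direction in every mouse depends on that division. The lung shares rest on estimated counts of 156 to 369 for Itga7-201, and the heart shares on 2682 to 6394. Counted by exon, the second exon was present in 78.8% ± 7.33 of transcripts in lungs and 87.3% ± 2.53 in hearts, higher in the lung in 1 of 6 mice (exact sign-flip permutation p = 0.09375). The form with the second exon led in both tissues.

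Itgb6, the epithelial partner of alpha v in the activation of latent TGF-beta, had overlapping gene values in lungs and hearts but a different transcript make-up. Itgb6-201 starts 48971 nucleotides upstream of Itgb6-202, has 18 exons in place of 15, and has a coding length of 2361 nucleotides, as does Itgb6-202. Its share was 0, 0 and 0.279 in WT and 0, 0 and 0 in KO (%) in the lung, and 24.1, 21.9 and 29.1 in WT and 34.7, 29.3 and 28 in KO (%) in the heart, with estimated counts of at most 5.45 in lungs and between 165 and 325 in hearts. It was lower in the lung in 6 of 6 mice (exact sign-flip permutation p = 0.03125, adjusted p = 0.102). Itgb6 stood between 9.67 and 10.65 in hearts. Of the 10 lung epithelial markers, Krt5, Epcam, Foxj1 and Cdh1 were at most 1.03, 3.98, 4.05 and 4.87 in hearts, whereas Hopx stood between 12.52 and 12.95 there and Scgb1a1 between 4.54 and 10.23, and the summed list lay between 12.55 and 13.22. The part of epithelial RNA in the heart values of Itgb6 was not tested.

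Of the laminin genes, the short transcript Lama3-202, which starts 170380 nucleotides downstream of Lama3-201 and has 38 exons in place of 75, held 27.1% ± 7.31 of Lama3 in lungs and 12.6% ± 10.8 in hearts (SD, n = 6). It was higher in the lung in 6 of 6 mice (exact sign-flip permutation p = 0.03125, adjusted p = 0.102), but heart counts of this form were at most 40.2, and it was listed at 0 in heart WT replicate 3 and heart KO replicate 2. The full-length Lamb2-201 held 71.7% ± 12.7 in lungs and 84.3% ± 3.51 in hearts, with lung WT replicate 3 lowest at 47.1%. That library was also the lowest lung for Lamc1-201, at 67.2% against 97.0% to 98.8%, and for Lama4-201, at 77.6% against 92.0% to 99.4%. It was the highest lung for Lama2-202, annotated as a retained intron, at 36.4% against at most 15.9%. For Itga8-201 and Itgb6-202 it lay within the range of the other lungs. The cause of these shares was not tested.

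**Figure D3:**
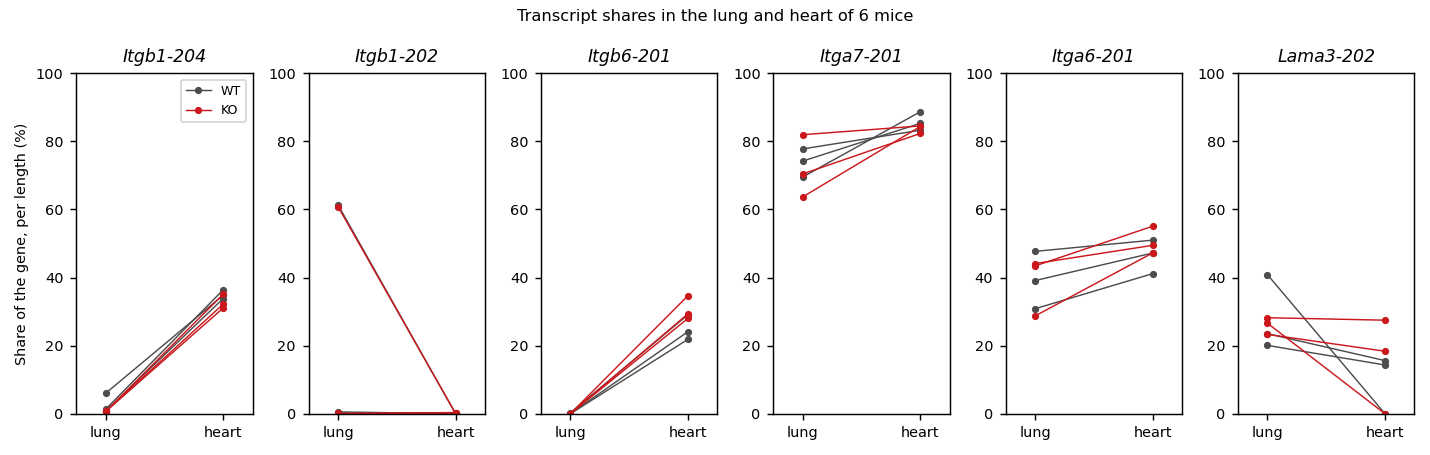
Share of 6 transcripts in their gene, per length (%, vertical axis), in the lung and heart of each of the 6 mice, with a line for each mouse and colour for genotype. Itgb1-204 and Itgb6-201 are higher in the heart of all 6 mice, and Itgb1-202 splits the lungs into 2 near 61% and 4 below 1%.

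The second question was whether loss of Adam19 altered any of these genes. In the lung, 0 of the 37 genes were called between KO and WT (limma), where 0.0665% of all 16551 genes tested were called. The smallest adjusted p was 0.806, and 4 genes (10.8%) had an unadjusted p under 0.05, against 5.93% of all genes tested. KO and WT libraries did not overlap for 6 genes (16.2%), against 12.8% of all genes. The median difference of the 37 genes was −0.05, with 18 positive and 19 negative. The 95% interval of Itgb1 ran from −0.29 to 0.34 around 0.03, that of Itga8 from −0.22 to 0.41 around 0.09, and that of Lama2 from −0.26 to 0.44 around 0.09.

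Itgae (chromosome 11, 72981409 to 73039917, on the forward strand), the alpha E subunit of lymphocytes that bind E-cadherin of epithelium, had the smallest p in the lung. Its values were 7.38, 7.15 and 7.50 in WT and 6.95, 6.21 and 6.57 in KO, all KO lungs lower, and the difference was −0.77 (SE 0.25, adjusted p = 0.806), with an unadjusted p of 0.0123. Of the 9 leukocyte markers tested in the lung, none had an unadjusted p under 0.05. Adam19 lies on the same chromosome as Itgae. Itga2b, Itga3, Itgb3 and Itgb4 lie there too, and none of them had an unadjusted p under 0.05 in the lung. The part of chromosomal position in the Itgae difference was not tested. Lamc3 had values of 8.12, 8.77 and 7.99 in WT and 8.88, 8.91 and 8.96 in KO, all KO lungs higher, a difference of 0.62 (SE 0.22, adjusted p = 0.806). Lama5 had values of 12.13, 11.97 and 12.10 in WT and 12.29, 12.53 and 12.59 in KO, all KO lungs higher, a difference of 0.40 (SE 0.15, adjusted p = 0.806), which was 0.12 with transcripts summed. Lamb2 differed by −0.42 (SE 0.18, adjusted p = 0.82), with overlap. None of these passed the threshold. In the same lungs, 2 of 6 heart muscle markers and 3 of 9 lung epithelial markers had an unadjusted p under 0.05. The share over all genes tested was 5.93%. The median differences over the lists were −0.60 and −0.04. The part of heart muscle and epithelial RNA in the values of Itgae, Lamc3, Lama5 and Lamb2 was not tested.

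**Figure D4:**
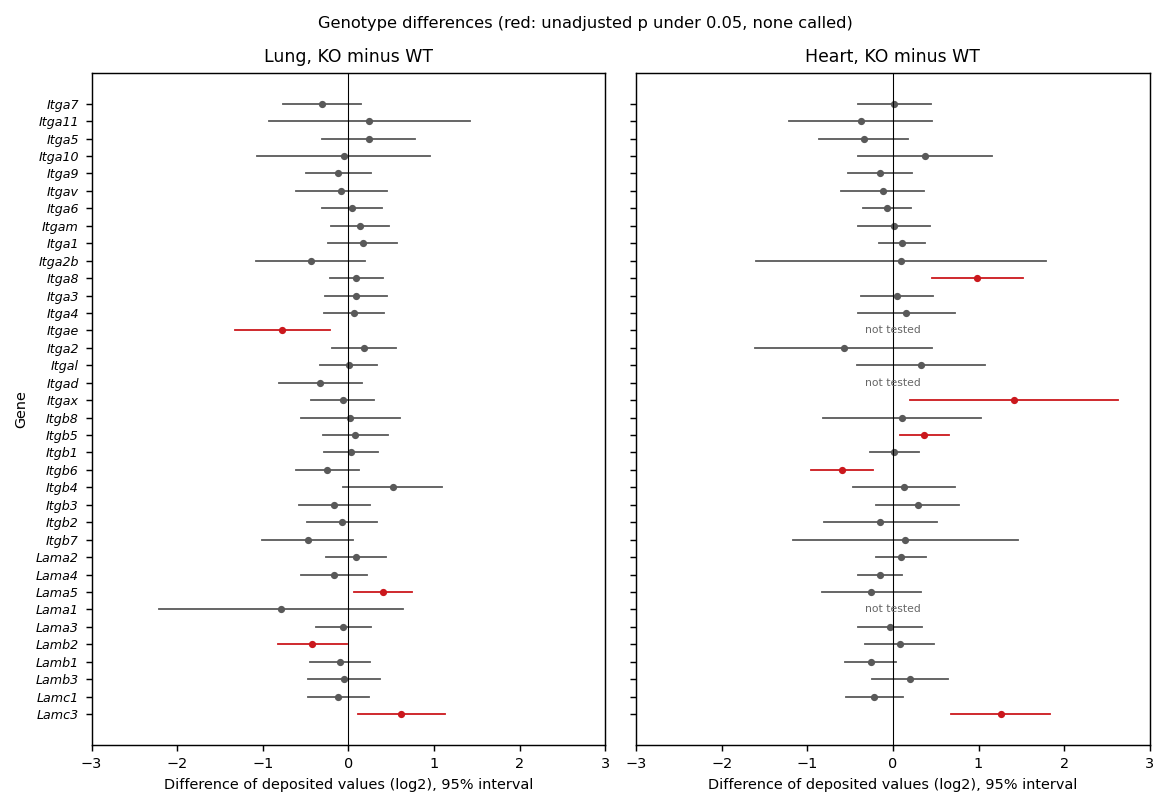
Difference between KO and WT (log2, horizontal axis) with its 95% interval for 36 of the 37 genes in lung (left) and, where tested, in heart (right), in red where the unadjusted p was under 0.05. None was called, and the intervals that leave 0 are 4 in the lung and 5 in the heart.

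In the heart, 34 of the 37 genes were tested, Itgad, Itgae and Lama1 being too low. None was called, where 0.085% of all 15303 genes tested were called. The smallest adjusted p was 0.276, and 5 genes (14.7%) had an unadjusted p under 0.05, against 7.46% of all genes tested. KO and WT hearts did not overlap for 6 genes (17.6%), against 13% of all genes. Itgae, not tested there, had heart values of 3.17, 2.99 and 3.09 in WT and 2.16, 2.22 and 1.84 in KO. All KO hearts were lower, as were all KO lungs, but every heart value was under the filter of 3.46.

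Lamc3 had heart values of 6.42, 6.77 and 6.14 in WT and 8.10, 7.63 and 7.36 in KO. All 3 KO hearts were above all 3 WT hearts, and the difference was 1.26 (SE 0.25, adjusted p = 0.276), with a 95% interval of 0.68 to 1.83 and an unadjusted p of 8.12e-04. Itga8 had heart values of 9.88, 10.38 and 9.61 in WT and 11.18, 10.52 and 11.12 in KO, again without overlap, a difference of 0.98 (SE 0.23, adjusted p = 0.397) and an interval of 0.45 to 1.51. Over the alternatives tried the Lamc3 difference lay between 1.05 and 1.43 (adjusted p 0.0938 to 0.942), and that of Itga8 between 0.81 and 1.19 (adjusted p 0.101 to 0.994). Summed with E030013I19Rik, which lies on the opposite strand and shares 710 nucleotides with it, the difference of Itga8 was 0.996. In the lung the Itga8 difference was 0.09, with all 3 KO lungs above all 3 WT lungs. For Itga8 the test of the difference between tissues gave −0.89 (SE 0.28, adjusted p = 0.533). Across the 37 genes, none was called for a difference of the genotype effect between tissues, where 0.00566% of all genes were, and 2 (5.41%) had an unadjusted p under 0.05, against 7.88% of all genes tested.

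Smooth muscle markers also differed in these hearts, without a call. Acta2, Myh11, Cnn1 and Tagln encode contractile proteins of smooth muscle. All had an unadjusted p under 0.05 in the heart, against 7.46% of all genes tested. Their median difference was 1.04 and their smallest adjusted p 0.194. Their summed level was 13.20, 13.40 and 13.49 in WT hearts and 14.23, 13.99 and 14.22 in KO hearts, without overlap. The part of smooth muscle RNA in the values of Itga8 and Lamc3 was not tested.

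Itgb6 had heart values of 10.23, 10.27 and 10.65 in WT and 9.67, 9.71 and 9.998 in KO, all KO hearts lower, a difference of −0.59 (SE 0.16, adjusted p = 0.481). Itgb5 differed by 0.37 (SE 0.13, adjusted p = 0.609) and Lamb1 by −0.26 (SE 0.13, adjusted p = 0.716), both without overlap. Itgax had heart values of 3.40, 4.33 and 3.53 in WT and 4.61, 6.30 and 4.60 in KO, and its difference of 1.42 (SE 0.54, adjusted p = 0.634) had heart KO replicate 2 farthest from the WT hearts. Of the 3 leukocyte markers tested in hearts, none had an unadjusted p under 0.05. Itga7 differed by 0.02 (interval −0.41 to 0.44), Lama2 by 0.10 (−0.20 to 0.39), Lamb2 by 0.08 (−0.32 to 0.48) and Itgb1 by 0.02 (−0.27 to 0.31). Lama5 differed by −0.25 (−0.83 to 0.32).

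**Figure D5:**
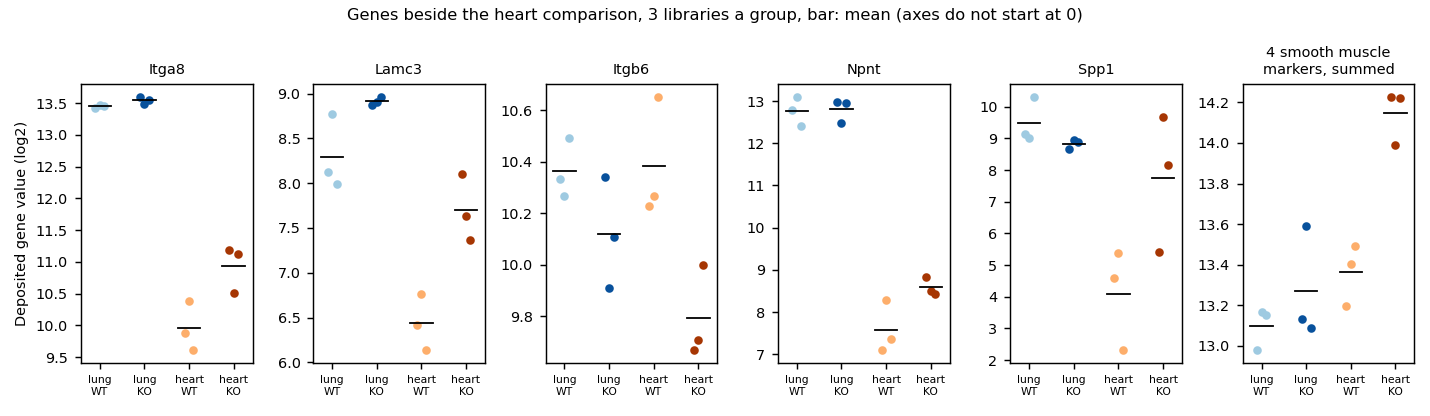
Deposited gene values (log2, vertical axes, which do not start at 0) of Itga8, Lamc3, Itgb6, Npnt and Spp1 and the summed level of 4 smooth muscle markers, 3 libraries (points) and their mean (bar) in each tissue and genotype. KO hearts lie above WT hearts for each but Itgb6, where they lie below. For Itga8 all lungs lie between 13.42 and 13.59, with KO lungs just above WT lungs.

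The other genes of the adhesion pathway were described by a list of 66 genes, of which 62 were tested between tissues. Between lung and heart, 44 were called, 29 higher in the lung and 15 lower. Over all genes tested, 51.3% were called. Integrin ligands other than laminins, cell-surface ligands such as Icam1 and Icam2 included, were 9 higher and 1 lower of 12. Laminin receptors other than integrins, with partners such as Plec and Dst, were 2 higher and 8 lower of 12. Tnn, the matrix protein tenascin N, was higher in the lung by 8.36 (SE 0.50, adjusted p = 6.48e-09), with 3 of 6 hearts listed at 0. Sgca, a sarcoglycan of muscle, was lower, at −6.77 (SE 0.26, adjusted p = 1.12e-10). Itgb1bp2, the muscle protein melusin that binds the beta 1 tail, was lower, at −6.09 (SE 0.13, adjusted p = 1.0e-12). Col4a3, a chain of the type IV collagen of alveolar basement membrane, was higher by 5.45 (SE 0.08, adjusted p = 1.30e-13), and Npnt, the nephronectin ligand of alpha 8 beta 1, by 4.70 (SE 0.20, adjusted p = 2.20e-10). Fermt1, the epithelial kindlin, stood between 6.39 and 7.07 in lungs and was listed at 0 in 5 of 6 hearts.

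Between genotypes, none of the 62 was called in the lung and 1 had an unadjusted p under 0.05, against 5.93% of all genes tested. In the heart none of the 60 tested was called, and 13 had an unadjusted p under 0.05, 10 higher in KO and 3 lower, of which the smallest adjusted p was 0.136. Over all genes tested in the heart, 7.46% had an unadjusted p under 0.05. Among the 10 were 5 integrin ligands, named here after their values were seen. Vwf, von Willebrand factor, differed by 0.37 (SE 0.15, adjusted p = 0.647), and its KO and WT hearts overlapped. Npnt had heart values of 7.10, 8.28 and 7.37 in WT and 8.84, 8.49 and 8.43 in KO, a difference of 1.0 (SE 0.29, adjusted p = 0.509). Spp1, which encodes osteopontin, had heart values of 4.60, 5.39 and 2.32 in WT and 5.43, 9.69 and 8.17 in KO, a difference of 3.66 (SE 1.06, adjusted p = 0.522). Tnc, tenascin C, had 5.91, 6.13 and 5.40 in WT and 6.65, 8.15 and 7.01 in KO, a difference of 1.46 (SE 0.39, adjusted p = 0.481), and Fn1, fibronectin, had 11.24, 11.25 and 11.11 in WT and 11.87, 12.83 and 11.72 in KO, a difference of 0.94 (SE 0.26, adjusted p = 0.481). KO hearts were above WT hearts for Npnt, Spp1, Tnc and Fn1, with KO replicate 2 the highest for Spp1, Tnc and Fn1. Col18a1 of the basement membrane had the smallest p of the list, with a difference of 0.94 (SE 0.15, adjusted p = 0.136). The genes named so far were all higher in KO. Parvb, among the integrin activators, adaptors and kinases, went the other way. Its heart values were 10.26, 10.59 and 10.70 in WT and 10.07, 10.05 and 9.86 in KO, all KO hearts lower. The medians over the tested genes of the list were 0.01 in the heart and 0.03 in the lung, against 0.03 and 0.01 over all genes tested.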

How the data were processed

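Stranded total RNA libraries were made from whole lung and whole heart, both taken from each of 6 mice. The authors quantified reads with Salmon against the comprehensive GENCODE transcripts of mm39. The submitters' processing notes also name cutadapt, STAR and limma 3.42.2. Both deposited tables, of 55679 genes and 147907 transcripts, hold values on a log2 scale. Transcript values are the log2 of 1 + the estimated count, and a gene with a single transcript has that value plus a constant for each library (−0.63 to 0.80, with at least 94.7% of such genes within 0.01). How transcripts were combined into genes is not given in the sources used here. Samples were grouped by the tissue, genotype and mouse in their titles.

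Testing, on the deposited values, covered genes with a value of 3.46 (a count of 10) or more in 3 or more libraries of a comparison and used limma 3.58.1 (R 4.3.3, lmFit and eBayes with a trend): KO against WT within each tissue, and lung against heart and the difference of the genotype effects in 1 fit of 4 group means. The calling thresholds were those of the study. Transcript shares used lengths of 205 of the 206 transcripts of these genes in GENCODE vM39 (GRCm39), for transcripts reaching 20% of a gene in a group. Levels were compared between genes only as estimated counts per kilobase. Sequences were read from the GRCm39 genome. Reads shared with other genes were searched with blastn 2.17.0 (at least 95% identity over at least 500 nucleotides), which found 5 of the 37 genes. The limma tests were run first on simulated data, and the sign-flip test on constructed differences with a known answer. The members, marker lists and pathway lists were chosen with earlier results of these data known. Rule for values in every library: Itga7, Itga8, Itgb1, Lama2 and Lama5, the 3 smallest p in each genotype comparison, the 5 largest non-overlapping tissue differences in each direction, and the highest gene of each class per kilobase. Other genes were named by class or after their values were seen. Some genes that the rule selects are not reported here, and they count in the totals.

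The mouse identifiers pair lung and heart. Correlations of paired deviations from group means over 17666 genes were 0.049, 0.136 and −0.02 in WT and 0.02, −0.07 and −0.04 in KO replicates 1, 2 and 3. The precision of a value is set by 3 mice a group and by 17674788 to 35862932 estimated counts a library. Alternatives changed the filter, the pseudocount, the scaling, the variance model, the test (limma-voom, scaled by median ratios), the gene values, the libraries, the pairing and the share's division by length.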

Additional observations from a re-analysis of the deposited data

How the results depend on the processing

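Under every alternative tried, 0 of these genes were called between KO and WT in either tissue or for a difference of the genotype effect between tissues. Lung against heart gave between 25 and 30 called genes. A filter asking for every library gave 25, since Itga2b, Itgad, Itgae and Itgax were then not tested. Aligning library medians and limma-voom gave 30 each, adding Itgb1 and Itgb5 and losing Itgav, and shifted the median of all genes by −0.22 and −0.21. Leaving out 1 library at a time gave between 27 and 29. The mouse as a replicate block gave 29, the same genes, and changed no call. A pseudocount of 10 lowered the differences of Itgad and Itgae, whose heart values are near 0, to 3.38 and 3.14. 

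Signs turned only in values that were not called. The Itgb1 difference between tissues was 0.029 with transcripts summed. That of Lama5 was −0.18 with medians aligned, −0.18 with limma-voom, −0.34 with transcripts summed, −0.30 in WT only, −0.080 without heart WT replicate 2 and −0.057 without heart KO replicate 1, and lay between −0.080 and 0.15 over the libraries left out. That of Itgb6 was −0.063 with medians aligned, −0.052 with limma-voom and −0.019 in WT only. The difference of the Itgae genotype effect was −0.31 with a pseudocount of 10. Without division by length, the share of Itgb1-201 in lung minus heart was −10.0 percentage points. The cause was not tested. No transcript share passed the adjusted threshold on either scale. With 3 mice a group, differences of low genes have wide intervals.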
